A study of Mus musculus with 9 samples.

Results

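Copines are a family of calcium-dependent, phospholipid-binding proteins, and 8 of their genes, Cpne1, Cpne2, Cpne3, Cpne4, Cpne5, Cpne6, Cpne7 and Cpne9, were followed here in the gastrocnemius of newborn mice with and without exon 11 of Shank3. The members were taken by their symbols, which were matched to the Ensembl identifiers of the deposited table, and all 8 were found among the 55471 genes listed. Other copine genes were not analysed here. The family was chosen from results of these same mice, in which the Cpne2 values of the knockout and wildtype mice were already known to differ. The knockout against wildtype values of the copines are therefore given as a description. Where the fit across all genes also covers them, the number with p below 0.05 is printed beside the share over all genes, as no test of the family, and nothing is read from it.

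The libraries came from gastrocnemius, a calf muscle, taken at postnatal day 0 to 1. Of the 9 mice, 5 were Shank3Δ11(-/-) (KO1 to KO5), in which exon 11 of Shank3 is deleted on both alleles, and 4 were wildtype Shank3(+/+) (WT1 to WT4). The labels give C57BL/6 for all 9 mice and no treatment. Per the methods of the study, the Shank3Δ11(-/-) mice came from crosses of heterozygous C57BL/6JRj mice and the animal facility supplied wildtype C57BL/6 mice. The deletion is carried in every cell, so that nerve, vessel and other tissue in the muscle carried it too. Each mouse gave 1 library, so the spread between libraries is the spread between these mice. The sources used here do not give the sex of a mouse. The study compared KO1, KO3 and KO5 with WT1 to WT4, leaving out KO2 and KO4, and that choice was kept for the comparisons below, with values for all 9 mice beside them. Its stated reason was too few reads in KO2 and KO4. In the deposited counts KO4 was the largest library, at 40471957, KO2 held 28211941 and KO5, which was kept, was the smallest, at 26444372. These are counts in genes and not total reads.

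A copine carries a pair of C2 domains at its start and a domain related to the von Willebrand factor A domain at its end. In copines the C2 domains bind the lipids of a membrane when calcium rises. Copines are known to move from the cytosol to the plasma membrane on a calcium signal. The A domain is the part known to hold partner proteins. Some copines, such as Cpne3, are found in many tissues, whereas Cpne6 is best known from neurons of the forebrain.

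The libraries held 26444372 to 40471957 counts each (median 31435732). Levels are given as CPM (read counts relative to the library size), scaled by the trimmed mean of M values (TMM). The whole gene of Shank3, the scaffold protein that the deletion targets, was read at 25.7 to 38.5 CPM in the 9 mice, with 31.6 ± 2.57 CPM in KO1, KO3 and KO5 (SD, n = 3) and 34.2 ± 2.90 CPM in Shank3(+/+) (SD, n = 4). A count over the whole gene does not check the deletion of exon 11. Xist, which marks cells with more than 1 X chromosome, exceeded 100 CPM in WT3, WT4, KO3 and KO5 and was below that in the other 5 mice. All 12 marker genes of skeletal muscle fibres were detected in every mouse, at a summed level of 65378 to 74226 CPM. Among these fibre markers KO5 was lowest for Myh3, at 2093 CPM against 4169 CPM or more elsewhere. It was also lowest for Myh7, at 335 CPM against 484 CPM or more, and for Actn2, and highest for 3 of the 12. KO5 stood apart in markers of other cell types too, as described beside Cpne2. In bulk muscle, fewer cells of a type and less RNA per cell cannot be told apart.

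The promoters of Cpne1, Cpne2 and Cpne9 are shown because they belong to a copine whose groups overlapped, to the copine whose groups did not, and to a copine with only a few counts per mouse. Each window of 300 bases ends 50 bases after the transcription start in RefSeq (build GRCm38.p6), is written 5′ to 3′ on the gene's own strand, and has its CG dinucleotides in capitals. The windows lie at chr2:156111916-156112215 on the minus strand for Cpne1, at chr8:94532778-94533077 on the plus strand for Cpne2 and at chr6:113282057-113282356 on the plus strand for Cpne9.
Cpne1: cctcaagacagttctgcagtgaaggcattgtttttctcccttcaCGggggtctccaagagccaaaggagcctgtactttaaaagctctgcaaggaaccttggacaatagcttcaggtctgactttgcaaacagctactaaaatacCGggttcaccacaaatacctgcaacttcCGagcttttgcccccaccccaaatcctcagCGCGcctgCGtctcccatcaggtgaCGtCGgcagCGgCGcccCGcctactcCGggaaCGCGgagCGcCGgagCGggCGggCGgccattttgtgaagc
Cpne2: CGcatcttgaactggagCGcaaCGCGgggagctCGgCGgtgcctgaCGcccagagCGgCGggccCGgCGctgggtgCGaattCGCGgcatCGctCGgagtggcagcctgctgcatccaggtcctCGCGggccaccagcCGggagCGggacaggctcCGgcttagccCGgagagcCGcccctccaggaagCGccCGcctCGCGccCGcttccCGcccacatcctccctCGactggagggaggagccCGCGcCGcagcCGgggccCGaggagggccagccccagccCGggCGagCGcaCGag
Cpne9: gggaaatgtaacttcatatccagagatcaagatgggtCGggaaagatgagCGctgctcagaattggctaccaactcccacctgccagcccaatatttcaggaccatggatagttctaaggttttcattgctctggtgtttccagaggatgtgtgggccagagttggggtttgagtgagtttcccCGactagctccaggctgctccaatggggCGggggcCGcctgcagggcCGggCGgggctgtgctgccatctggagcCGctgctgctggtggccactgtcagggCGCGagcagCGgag

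The Cpne2 promoter was the densest in CG dinucleotides among the copine windows. It held 39 of them at a GC content of 76.0%, whereas the Cpne1 window held 19 at 57.0% and the Cpne9 window 11 at 58.7%. Over all 32851 mouse promoter windows of this length the median was 7 CG dinucleotides and 52.7% GC, and the Cpne2 count lay at the 95.6th percentile. The table gave windows for 5 of the 8 members. The Cpne5 window, at chr17:29237741-29238040 on the minus strand, held 32 CG dinucleotides. Cpne4 had 2 windows on the plus strand, at chr9:104569405-104569704 with 14 CG dinucleotides and at chr9:104587808-104588107 with 1. The motif GGGCGG, searched on both strands, was present in 5 of the 6 copine windows and in 35.7% of all windows. The letters CAGCTG, an E-box bound by muscle regulatory factors, and TATAAA were in 0 of the 6, against 16.3% and 13.6% of all windows. A match of letters is a description of the sequence and no record of a bound factor.

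Cpne3, Cpne1 and Cpne2 carried most of the RNA of the 8 copines in newborn muscle. To compare genes, each level was divided by the length of the gene's merged exons in GENCODE M21, which is a level in CPM per kilobase. Cpne3 stood at 4.69 ± 0.64, Cpne1 at 4.50 ± 0.48 and Cpne2 at 4.33 ± 0.87 CPM per kilobase (SD, n = 9). Their ranges over the mice overlapped, with Cpne3 above Cpne1 in 5 of 9 mice and Cpne1 above Cpne2 in 5 of 9, so the order of these 3 was within their spread. The 3 genes together made up 90.0 to 95.1% of the summed level per kilobase of the 8 copines in each mouse. They lay at percentiles 76.1, 75.5 and 75.0 of the 38514 genes with a count in any mouse.

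The other copines followed in clear steps, shown in the plot of the level of each copine. Cpne7 stood at 0.99 ± 0.20 CPM per kilobase (SD, n = 9), with every mouse below its own Cpne2 level and a mean ratio of Cpne2 to Cpne7 of 4.36. Cpne5 came next at 0.12 ± 0.02 CPM per kilobase, 8.30 times below Cpne7 and again lower in 9 of 9 mice. Cpne6 at 0.021 ± 0.014 and Cpne9 at 0.020 ± 0.0066 CPM per kilobase overlapped each other and lay 5.58 times or more below Cpne5. Cpne4 was lowest at 0.0059 ± 0.0093 CPM per kilobase, and its range overlapped that of Cpne9. Cpne6 and Cpne9 lay at percentiles 18.1 and 17.5 of the genes with a count, and Cpne4 at 7.48.

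**Figure D1:**
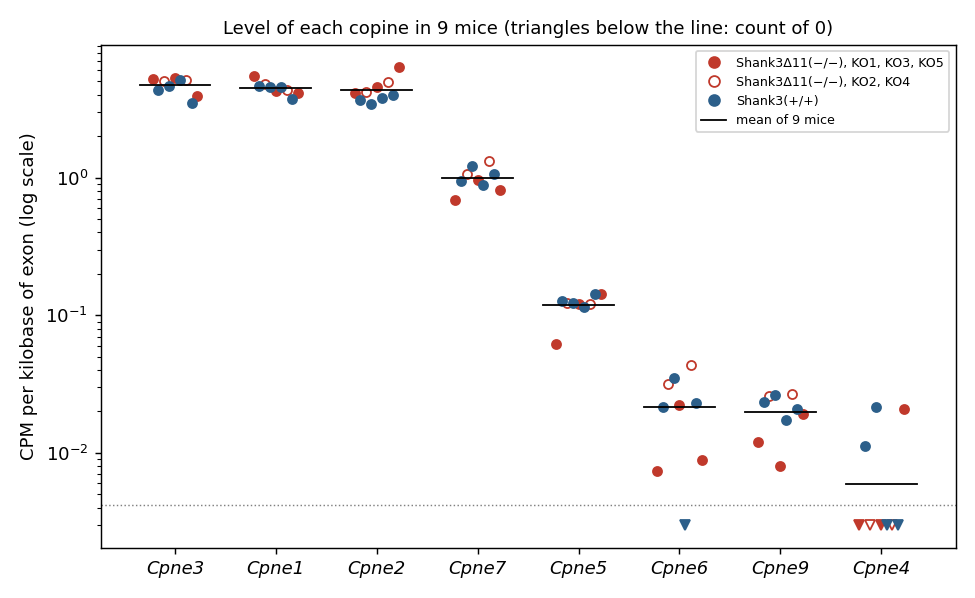
Level of the 8 copines in CPM per kilobase of merged exon on a log axis, 1 point per mouse, with red for Shank3Δ11(-/-), open red for KO2 and KO4, blue for Shank3(+/+), a line at the mean of 9 mice and triangles for a count of 0. Cpne3, Cpne1 and Cpne2 overlap at means of 4.33 to 4.69, Cpne7 and Cpne5 each lie apart, and Cpne4 has a count of 0 in 6 of 9 mice.

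Cpne3 (chr4:19519254-19570108, minus strand), a widely expressed copine reported to bind the receptor kinase ErbB2 and the ribosomal scaffold Rack1, had the most counts of the 8 copines, 736 to 1391 per mouse. Its level was 37.0, 35.7, 37.7, 36.5 and 27.9 CPM in KO1 to KO5 and 31.0, 33.1, 36.6 and 24.97 CPM in WT1 to WT4. The groups overlapped, with KO5 and WT4 lowest in their groups and the other 4 Shank3Δ11(-/-) mice between 35.7 and 37.7 CPM. KO1, KO3 and KO5 averaged 34.2 ± 5.48 CPM (SD, n = 3) and Shank3(+/+) 31.4 ± 4.89 CPM (SD, n = 4). The fitted log2 fold change of Shank3Δ11(-/-) over Shank3(+/+) was 0.12 with a standard error of 0.15, and 0.16 in all 9 mice. It was 0.24 without KO5, 0.21 without WT3, 0.06 without KO1, 0.04 without KO3 and 0.02 without WT4.

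Cpne1 (chr2:156071842-156111965, minus strand), reported to bind the NF-κB subunit p65 and the adaptor 14-3-3γ, was read at 493 to 787 counts per mouse. KO1 to KO5 had 24.6, 21.7, 19.2, 19.5 and 18.7 CPM and WT1 to WT4 had 20.9, 20.6, 20.6 and 16.9 CPM. The groups overlapped. WT4 was lowest of all and KO1 highest. The means were 20.9 ± 3.29 CPM in KO1, KO3 and KO5 (SD, n = 3) and 19.7 ± 1.91 CPM in Shank3(+/+) (SD, n = 4). The fitted log2 fold change was 0.07 with a standard error of 0.13. It was -0.06 without KO1, 0.13 without KO3, 0.14 without KO5 and 0.009 without WT4.

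The level of Cpne1 is uncertain because its exons are shared with other genes on the same strand. Of its 4507 merged exon bases, 3755 also belong to the locus Gm28036 and 404 to Rbm12, an RNA-binding protein gene whose 5′ end lies 13 bases from that of Cpne1. This leaves 718 bases, 15.9%, in Cpne1 alone. How reads in shared exons were counted is not given in the sources used here. If all such reads had been set aside, the same counts over those 718 bases would be 28.3 ± 3.00 CPM per kilobase (SD, n = 9), above Cpne3 and Cpne2, so the place of Cpne1 in the order above depends on the counting. Rbm12 was listed at 25.3 to 38.1 CPM and Gm28036 at 23.7 to 32.5 CPM. The 3 genes summed to 80.1 ± 12.8 CPM in KO1, KO3 and KO5 (SD, n = 3) and 82.5 ± 7.64 CPM in Shank3(+/+) (SD, n = 4), with overlapping mice. No other copine shared more than 1.55% of its 50-base exon windows with another gene, and 0 windows were shared between copines.

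Cpne2 (chr8:94532990-94570531, plus strand), a less studied copine that binds membranes on calcium like its relatives, was the member on which the family was chosen. KO1 to KO5 had 420, 396, 461, 602 and 532 counts, or 13.1, 13.4, 14.5, 15.8 and 20.2 CPM. WT1 to WT4 had 382, 371, 355 and 395 counts, or 11.8, 11.0, 12.1 and 12.8 CPM. Every Shank3Δ11(-/-) mouse, KO2 and KO4 included, lay above every Shank3(+/+) mouse. The narrowest gap was between KO1 and WT4, whose exact Poisson 95% intervals, 11.9 to 14.5 and 11.6 to 14.2 CPM, overlap and cover counting error only. KO5 was highest by a wide margin.

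In means, Cpne2 stood at 15.9 ± 3.73 CPM in KO1, KO3 and KO5 (SD, n = 3) and 11.9 ± 0.784 CPM in Shank3(+/+) (SD, n = 4), a ratio of 1.34. The 5 Shank3Δ11(-/-) mice averaged 15.4 ± 2.86 CPM (SD, n = 5). The fitted log2 fold change was 0.41 with a standard error of 0.16, and 0.37 with 0.14 in all 9 mice. Without KO5 it was 0.20 with 0.14, and 0.26 with 0.11 when KO2 and KO4 were kept. Among mice with Xist above 100 CPM the ratio of means was 1.39 (KO3, KO5 against WT3, WT4), and among those below it was 1.16 (KO1 against WT1, WT2) or 1.24 with KO2 and KO4.

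**Figure D2:**
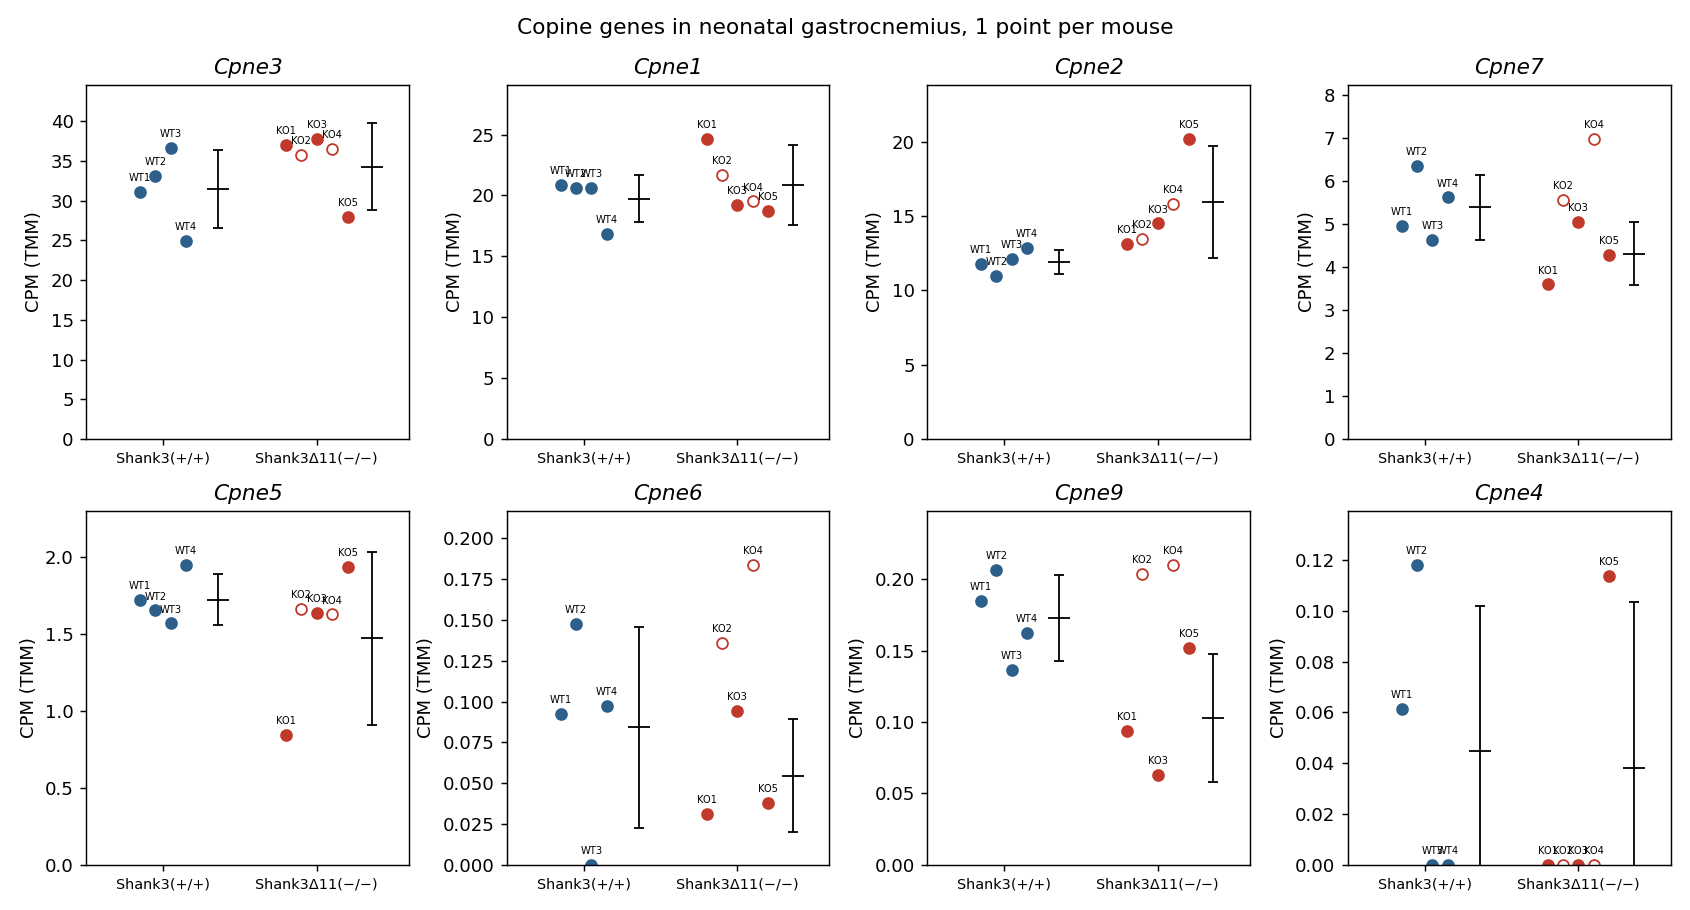
Level of each copine in CPM from 0, 1 labelled point per mouse, in Shank3(+/+) (blue) and Shank3Δ11(-/-) (red, open for KO2 and KO4), with the mean ± SD of WT1 to WT4 and of KO1, KO3 and KO5 in black beside the points. In the Cpne2 panel the Shank3Δ11(-/-) mice sit at 13.1 to 20.2 CPM above the Shank3(+/+) mice at 11.0 to 12.8 CPM, and in the other panels the groups overlap.

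KO5, the mouse with the highest Cpne2 level, was also highest for 4 of the 11 marker lists, those of Schwann cells, adipocytes, neurons and leukocytes. The 7 Schwann cell markers, genes of the glia that wrap peripheral nerves, summed to 498 CPM in KO5 and to 320 to 425 CPM in the other 8 mice. Pmp22 made up most of the sum, at 278 CPM in KO5 and 284 CPM in KO4. Mbp was at 94.6 CPM in KO5 and at or below 44.0 CPM elsewhere, whereas Sox10, S100b and Ngfr were not highest in KO5. Of the 7 Schwann cell markers 5 had a higher fitted level in KO1, KO3 and KO5, 2 of them at p below 0.05, and 3 were highest in KO5. Of all 21809 genes tested 10414 were higher, 253 of them at p below 0.05. The 6 adipocyte markers summed to 1140 CPM in KO5 and to 189 to 408 CPM in the others, and all 6 were highest in KO5. Adiponectin, Adipoq, was at 78.6 CPM in KO5 and at or below 9.02 CPM elsewhere. Of 5 adipocyte markers tested, 5 were higher at p below 0.05, beside 253 of all 21809 genes tested. The part of these cell types in the Cpne2 values was not tested. The Schwann sums of KO1, KO2 and KO4 were 362, 386 and 416 CPM, within the range of 320 to 421 CPM in Shank3(+/+), and that of KO3 was 425 CPM. The adipocyte sums of KO1, KO3 and KO4 were 388, 294 and 408 CPM, above the wildtype range of 214 to 293 CPM, and that of KO2 was 189 CPM, below it. Fabp4, which endothelium also expresses, made up 73.9 to 98.6% of the sum in each mouse. The other 5 adipocyte markers, summed apart after these values were seen, were at 297 CPM in KO5, 32.8 in KO1 and 10.1 in KO2. KO3 and KO4, at 5.41 and 6.07 CPM, lay within the wildtype range of 4.16 to 8.05 CPM.

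Of the other marker lists, satellite cell markers summed to 204 to 262 CPM in KO1, KO3 and KO5 and to 266 to 312 CPM in Shank3(+/+). KO4 was at 208 CPM and KO2, at 330 CPM, was the highest of all mice. In fitted level 5 of 5 were lower in KO1, KO3 and KO5, 2 of them at p below 0.05. Of all 21809 genes tested 11395 were lower, 200 of them at p below 0.05. Neuron markers summed to 17.4 to 26.9 CPM in 8 mice and to 27.4 CPM in KO5, leukocyte markers to 72.8 to 107 CPM and to 111 CPM in KO5, and endothelial markers to 568 to 801 CPM over all mice, with 0 markers of these 3 lists at p below 0.05. In KO1, KO3 and KO5, 5 of 9 neuron, 5 of 7 leukocyte and 6 of 6 endothelial markers tested had a higher fitted level. The median log2 fold change of the endothelial markers was 0.11. Fibroblast markers summed to 10952 to 21925 CPM, with 1 of 6 higher at p below 0.05, beside 253 of all 21809 genes tested. Chondrocyte, keratinocyte and erythroid markers, with 0 at p below 0.05, summed to 39.6 to 232, 12.7 to 59.0 and 1223 to 5774 CPM. In KO1, KO3 and KO5, 4 of 5 chondrocyte and 5 of 6 keratinocyte markers tested had a lower fitted level. KO4 was alone at 232 CPM for chondrocytes, with 75.7 CPM or less elsewhere. KO1, the highest mouse for Cpne1 and the lowest for Cpne5 and Cpne7, was alone at 5774 CPM for erythroid markers, with 2192 CPM or less elsewhere. All 6 erythroid markers had a higher fitted level in KO1, KO3 and KO5, with a median log2 fold change of 0.88. The part of these cells in the copine values was not tested.

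**Figure D3:**
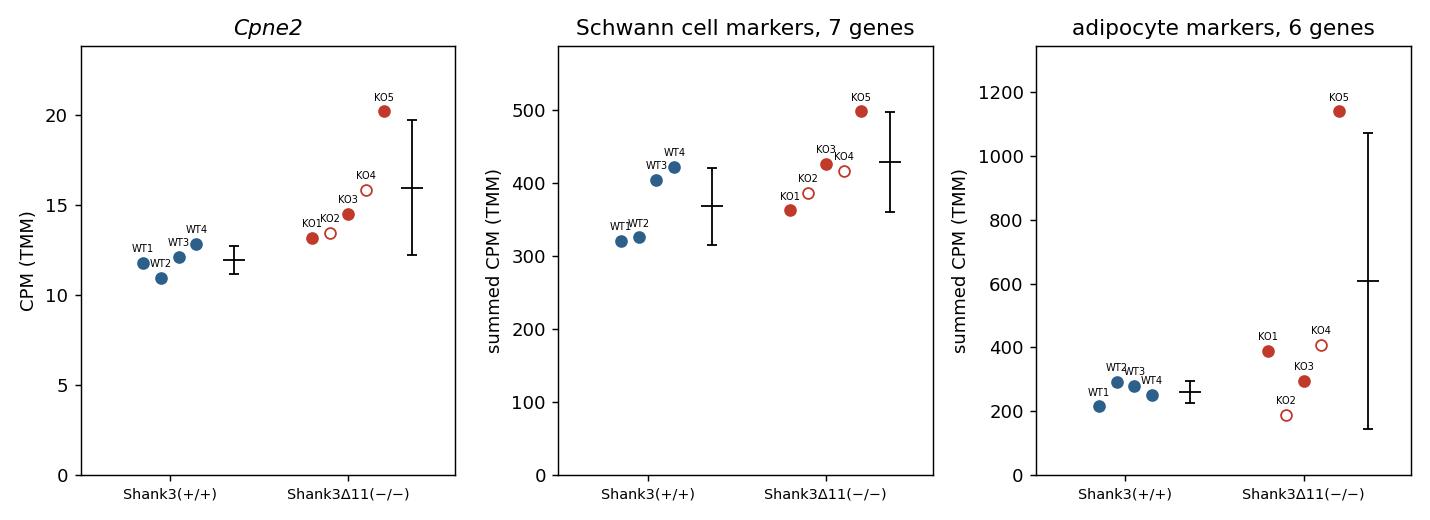
Cpne2 in CPM and the summed CPM of 7 Schwann cell markers and 6 adipocyte markers, each from 0, 1 labelled point per mouse in Shank3(+/+) (blue) and Shank3Δ11(-/-) (red, open for KO2 and KO4), with the mean ± SD of WT1 to WT4 and of KO1, KO3 and KO5. KO5 is highest in all 3 panels, at 20.2, 498 and 1140 CPM, and the groups of all 9 mice are apart for Cpne2 alone. With KO2 left out the adipocyte sums are apart too, with KO3 at 294 CPM (288.8 of it Fabp4) next to WT2 at 293 CPM (288.3 of it Fabp4).

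As a share of the family, Cpne2 made up 24.4 to 32.1% of the summed copine level per kilobase in Shank3(+/+) and 26.5 to 41.0% in Shank3Δ11(-/-), with the ranges overlapping. The sum includes the uncertain level of Cpne1, so these shares depend on how reads in its shared exons were counted. The level of Cpne2 per kilobase was 0.74 to 1.15 times that of Cpne3 in Shank3(+/+) and 0.79 to 1.61 times in Shank3Δ11(-/-). KO5 was the extreme of both measures, with the highest Cpne2 and the lowest Cpne3 among the Shank3Δ11(-/-) mice.

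Cpne7 (chr8:123117374-123135182, plus strand) was read at 113 to 266 counts. KO1 to KO5 had 3.60, 5.57, 5.06, 6.99 and 4.29 CPM and WT1 to WT4 had 4.95, 6.35, 4.64 and 5.63 CPM. The groups overlapped, and KO4, which the study left out, was the highest of the 9 mice. KO1, KO3 and KO5 averaged 4.32 ± 0.733 CPM (SD, n = 3) against 5.39 ± 0.759 CPM (SD, n = 4), a fitted log2 fold change of -0.33 with a standard error of 0.19. With KO2 and KO4 it was -0.08 with 0.19. Without KO1, the lowest of the 9 mice, it was -0.21 in the remaining 6 of the 7 mice and 0.03 in the remaining 8 of all 9. Taking WT2 instead from all 9 gave 0.01.

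Cpne5 (chr17:29155556-29238167, minus strand), known mainly from the nervous system, was low, with 27 to 62 counts per mouse. KO1 to KO5 had 0.845, 1.66, 1.64, 1.63 and 1.93 CPM and WT1 to WT4 had 1.72, 1.65, 1.57 and 1.95 CPM. All mice other than KO1 lay between 1.57 and 1.95 CPM. The means were 1.47 ± 0.563 CPM in KO1, KO3 and KO5 (SD, n = 3) and 1.72 ± 0.164 CPM in Shank3(+/+) (SD, n = 4). The fitted log2 fold change of -0.24, with a standard error of 0.28, became 0.04 without KO1 and -0.49 without KO5.

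The remaining 3 copines were at the limit of detection and did not pass the filter on low counts. Cpne6 (chr14:55510445-55517431, plus strand), the neuronal copine that acts on Rac1 in dendritic spines, had 1, 4, 3, 7 and 1 counts in KO1 to KO5 and 3, 5, 0 and 3 in WT1 to WT4. Cpne9 (chr6:113282307-113305627, plus strand) had 3, 6, 2, 8 and 4 counts in KO1 to KO5 and 6, 7, 4 and 5 in WT1 to WT4. Cpne4 (chr9:104547286-105034544, plus strand) had 0 counts in 6 mice, with 3 counts in KO5, 2 in WT1 and 4 in WT2. The groups overlapped for all 3 genes. Over KO1, KO3 and KO5 against the 4 Shank3(+/+) mice the counts summed to 5 against 11 for Cpne6, 9 against 22 for Cpne9 and 3 against 6 for Cpne4. Without the filter their fitted log2 fold changes were -0.61, -0.76 and -0.41, values that rest on these few counts. For a mouse with a count of 0, up to 3 counts are allowed, which is 0.0788 to 0.102 CPM in the libraries concerned and covers counting error only.

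For the 5 copines that passed the filter, the spread over the 9 mice was set beside counting error. The coefficient of variation was 10.6% for Cpne1, 13.6% for Cpne3, 19.8% for Cpne5, 19.8% for Cpne7 and 20.1% for Cpne2. Counting alone at their mean counts would give 3.95, 3.07, 14.0, 7.74 and 4.80%. Single mice set some of this spread. Without KO1 the value of Cpne5 was 8.38%, below its counting error, and without KO5 that of Cpne2 was 11.9%. With any 1 mouse left out, Cpne1, Cpne2, Cpne3 and Cpne7 stayed above their counting error.

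Over all genes tested with edgeR's quasi-likelihood test, 453 of 21809 genes had p below 0.05 in KO1, KO3 and KO5 against Shank3(+/+), which is 2.08%. The study's criterion of p below 0.05 with a false discovery rate below 25% was passed by 0 genes (0%), against 6 with DESeq2 and 0 with limma-voom. The study, which used limma, reports a larger number of genes at its criterion. The 453 genes became 224 without KO5, 794 without KO3 and 968 without KO1. Of the 5 copines tested, 1 had p below 0.05, Cpne2, which became 0 without KO5 or without WT2, and 0 passed the criterion. In 9 mice 2.03% of genes had p below 0.05, and again 1 of 5 copines did. Every KO mouse lay above every wildtype mouse for 1.53% of genes in the 7 mice and for 0.317% in the 9 mice, and for 1 copine, Cpne2, in both. Cpne2 was known to differ when the family was chosen, so nothing is read from these counts. The median log2 fold change was 0.07 over the 5 tested copines and -0.01 over all genes tested.

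**Figure D4:**
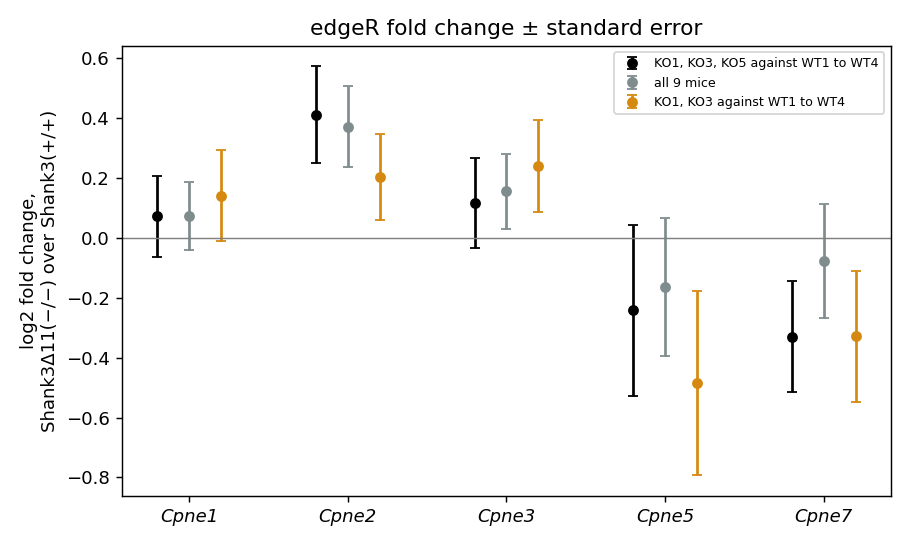
Fitted log2 fold change of Shank3Δ11(-/-) over Shank3(+/+) with its standard error for the 5 copines that passed the filter, in the 7 mice compared (black), in all 9 mice (grey) and without KO5 (orange). Cpne2 moves from 0.41 to 0.20 without KO5, and Cpne7 from -0.33 to -0.08 in all 9 mice.

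Other proteins with C2 domains, the domains that copines also carry, were followed beside them. From a list of 55 such genes, which holds synaptotagmins, extended synaptotagmins, Unc13 proteins, protein kinases C and others, 46 were tested, with 21 higher and 25 lower in Shank3Δ11(-/-) and a median log2 fold change of -0.003. Of the 46, 1 had p below 0.05, Rab11fip1, an adaptor of the recycling endosome GTPase Rab11, beside 2.08% of all genes tested. It was lower, at 1.86 ± 0.276 CPM in KO1, KO3 and KO5 (SD, n = 3) against 2.82 ± 0.534 CPM (SD, n = 4), a log2 fold change of -0.61 with a standard error of 0.22 and an adjusted p of 1.00 in edgeR. In 9 mice its log2 fold change was -0.40, and 0 members had p below 0.05. In the 7 mice the count was 3 without KO3, beside 794 of 22244 genes tested. It was 0 without WT3, beside 399 of 21620, and 2 without WT4, beside 451 of 21558. Nedd4, a ubiquitin ligase with a C2 domain, was the most abundant of the list at 1405 ± 147 against 1487 ± 144 CPM. Esyt1, which tethers the endoplasmic reticulum to the plasma membrane, was at 93.8 ± 11.9 against 103 ± 8.85 CPM. Their log2 fold changes were -0.09 with a standard error of 0.12 and -0.14 with 0.12.

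RNAs of the proteins reported to bind a copine were all detected, and the 9 genes of this list all passed the filter and were tested. In Shank3Δ11(-/-) 2 were higher and 7 lower. The number with p below 0.05 was 0, beside 2.08% of all genes tested, and 1 without WT4, beside 451 of 21558. The log2 fold changes of the list had a median of -0.04. Rack1, a scaffold for protein kinase C, was at 717 ± 120 CPM in KO1, KO3 and KO5 (SD, n = 3) and 726 ± 52.6 CPM in Shank3(+/+) (SD, n = 4). Ywhag, which encodes 14-3-3γ, was at 224 ± 29.9 and 234 ± 11.97 CPM, and the GTPase Rac1 at 192 ± 4.88 and 189 ± 7.24 CPM.

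The genes whose levels ran most like Cpne2 over the 9 mice were named by Pearson's r of log2 CPM among 17955 genes with a mean of at least 1 CPM. They were H2-Eb1, a class II histocompatibility gene, Ret, the receptor kinase of glial cell line-derived neurotrophic factor, and Nr1h3, which encodes the nuclear receptor LXRα, each at r = 0.94. All 3 were highest in KO5, at 2.96, 5.16 and 3.19 CPM, and without that mouse r was 0.82, 0.81 and 0.86. For Cpne3, the copine with the highest mean CPM, they were Tbck, Zfp366 and Nat8f4, also at r = 0.94, and at 0.97, 0.92 and 0.93 without KO5. These are the extremes of many genes over 9 libraries that share depth and tissue makeup, and they describe likeness of pattern only.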

How the data were processed

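The deposited values are the authors' raw counts of reads per Ensembl gene, which the authors made by mapping to mm10 with HISAT2 2.2.1 and counting with featureCounts 2.0.1, without normalization. Which annotation release was used, whether counting was stranded and how shared reads were treated is not given in the sources used here. Symbols were found for 55144 of 55471 identifiers. Positions and exon lengths came from GENCODE M21 (GRCm38). Genes of low count were removed by filterByExpr, which asks for 10 counts in enough mice and 15 in total. The remainder were fitted by edgeR 4.0.16 (R 4.3.3) after TMM scaling, using its 2-sided robust quasi-likelihood test, and p-values were adjusted by Benjamini-Hochberg across every gene tested. The steps were tested on simulated data. Sex, which the labels do not give, was covered by Xist levels and a Y-linked covariate. Alternatives were all 9 mice, each mouse left out in turn, no filter or 10 counts in every mouse, other size factors, DESeq2 1.42.0, limma-voom (limma 3.58.1), no robust estimation, a replicate block and counts thinned to the shallowest library. Log2 CPM for r used a prior count of 2.

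The members, gene lists and marker lists were chosen with earlier results of these data known. Named were the 8 copines, members of the C2 and partner lists with p below 0.05 and, up to 3 per list, those of highest CPM, the 3 genes most like Cpne2 and the copine of highest CPM, Shank3 and Xist. From the Schwann cell list 1 gene is not reported here and was left out of its sum. Single marker genes, Rbm12 and Gm28036 were named after their values were seen.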

Additional observations from a re-analysis of the deposited data

Results flagged for a closer look

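In 16 groups, each copine in each genotype, the lowest or highest mouse was compared with its nearest neighbour by Dixon's criterion, which chance meets in about 1 in 20 groups. It was met 4 times. Cpne1 was at 16.876 CPM in WT4, with the next wildtype mouse at 20.585 CPM. Cpne3 was at 27.92 CPM in KO5, with the next Shank3Δ11(-/-) mouse at 35.74 CPM. Cpne5 was at 0.84517 CPM in KO1, with the next at 1.6284 CPM. Cpne4 was at 0.11381 CPM in KO5, which is 3 counts beside 0 in the other 4 mice. With the others tied at 0 any count meets the criterion, so the rate of 1 in 20 does not apply to Cpne4. The Cpne2 value of KO5 did not meet the criterion.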

How the results depend on the processing

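The log2 fold change of Cpne2 was above 0 in all 28 alternatives, from 0.20 without KO5 to 0.53 without KO1. These are fits of the same mice from which the family was chosen. Every Shank3Δ11(-/-) mouse lay above every Shank3(+/+) mouse for Cpne2, so this sign could hardly turn and lends no support. Cpne3 ran from 0.02 to 0.24. Cpne1 ran from -0.06 to 0.14, Cpne5 from -0.49 to 0.04 and Cpne7 from -0.46 to 0.03, changing sign in 1, 1 and 2 alternatives. Genes with p below 0.05 numbered 453, and 972 without a filter on low counts. Genes past the study's criterion numbered 0, but 1 without the filter and 6 with DESeq2. Leaving out 1 mouse at a time, from the 7 mice or from all 9, gave 224 (without KO5) to 968 (without KO1) genes with p below 0.05 and 0 to 15 (without KO1) past the criterion, 0 to 1 copines with p below 0.05 (0 from the 7 mice without KO5 or WT2 and from all 9 without WT2), and 1 to 2 copines whose groups do not overlap. Without KO3, Cpne7 was added, lower in Shank3Δ11(-/-), when 4.64% of genes were apart in that direction. Without KO5, Cpne3 was added, higher, when 3.15% were. Leaving out 1 mouse at a time gave 0 to 4 C2 genes and 0 to 1 partner genes with p below 0.05. The 4 came from all 9 mice without KO2, beside 745 of 21509 genes tested, and the 7 mice gave at most 3. C2 genes with p below 0.05 numbered 0 in all 9 mice and 3 with the Y-linked covariate, beside 595 of 21809 genes tested with that covariate. The causes were not tested. Among Cpne4, Cpne6 and Cpne9, which failed the filter, depth limits any difference.

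The replicate numbers were not taken to pair the mice, since no label ties them and same-numbered mice had correlations of 0.37, 0.05, 0.36 and 0.10 in their deviations, 1 of them under 0.1. For 3 of the 4 numbers, both numbers 1 and 3 of the 7 mice included, this was above the best correlation with another number (0.13, 0.27, 0.28 and 0.04), a hint from the data and not the design. With the replicate block, 7 mice gave 844 genes with p below 0.05, 9 past the criterion, 0 copines and 3 C2 genes. Cpne2 was at a log2 fold change of 0.21 with a standard error of 0.14 in that fit. Only numbers 1 and 3 occur in both genotypes there, so KO5, WT2 and WT4 add nothing to the genotype difference. It rests on KO1 and KO3 against WT1 and WT3. The block in 9 mice, where KO5 alone adds nothing, gave 452 genes with p below 0.05, 2 past the criterion and 2 copines.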
